A study of Homo sapiens with 6 samples.

Results

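Chromatin remodellers are multisubunit machines that use ATP to slide, eject or exchange nucleosomes, and so set which stretches of DNA other factors can reach. They fall into the SWI/SNF, ISWI, CHD and INO80/SWR families, named after the ATPase at their centre, and the other subunits recruit the machine, read histone marks or hold it together. The binding of hnRNP A1, a nuclear RNA binding protein best known for acting on splice site choice, was examined on the transcripts of 40 genes that encode such ATPases and subunits. A binding site (cluster) was taken as a member when the deposited annotation, which names the gene of the nearest transcription start, named 1 of the 40 genes and the cluster also lay inside that gene on its strand. Of 16269 clusters in the 6 libraries, 79 carried the name of a remodeller gene and 72 of these lay inside it. Because the nearest start can be that of another gene inside a long intron, all clusters inside the 40 genes were also counted whatever their given name, and there were 105 of these, of which 33 were named for another gene. All 40 symbols were found in the GENCODE annotation of the same build. The first set is called "named" clusters and the second "in-gene" clusters.

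The libraries came from PAR-CLIP of HEK293T cells, a human embryonic kidney line, that carried plasmids for myc-tagged WT hnRNP A1 or for A1dm, the variant with the substitutions R75D and R88D. In PAR-CLIP, 4-thiouridine built into new RNA is joined to proteins that touch it by ultraviolet light, and a joined base is later read as C in place of T. RNA was recovered with an antibody to the myc tag from the monomeric WT band (A1), from a slower WT band (A1-HMW), and from the monomeric A1dm band, with 2 libraries for each of the 3 groups. The paper describes the slower band only as possibly a dimer. All cells were given 4-thiouridine, and all of the tagged protein came from transient transfection, on top of the hnRNP A1 that the cells make themselves. The lists held 5805 and 8100 clusters for A1, 671 and 865 for A1-HMW, and 232 and 596 for A1dm. They gave no read numbers, so the depth is unknown and each cluster has the same weight. A library without a cluster at a site is therefore no evidence that the protein was absent from it. RNA levels were not measured in these lists either, so the number of clusters on a transcript cannot be set against how much of that transcript the cells held.

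A1 was found on the transcripts of 28 of the 40 genes (70%), beside 21.6% of all protein-coding genes. The latter are shorter, with a median length of 27.2 kb against 82.8 kb. The 40 genes were also chosen with earlier results of these data known, so this contrast is not independent of the data. All 8 CHD genes on the list were among the 28, although the place of the only CHD3 site is uncertain, as described below. CHD5 and CHD1L, which are not on the list, held no A1 cluster. The clusters were short and made largely of A and G. The sites shown first are 7 of the 9 that A1-HMW or A1dm also occupied, on which the comparison between the proteins turns. Coordinates are those of hg19, each sequence is printed 5′ to 3′ on the transcribed strand with T for U, and capitals mark every run of 12 or more purines.
BAZ1B coding exon 4 of 20, chr7:72912831-72912858, minus strand: gaaagaggatGAAGGAAGGAGAGAGAGt
CHD1 intron 2 of 35, chr5:98253717-98253743, minus strand: aggtGAAGGAAGGAAAAAAAAGGAAGc
CHD9 coding exon 3 of 39, chr16:53243618-53243642, plus strand: tGAAGGAAAAGAGGAAAAGAAAGGt
HELLS coding exon 6 of 22, chr10:96322573-96322601, plus strand: GAGGAAAAAAAGAGGAAGAGAAGAtgaat
HELLS intron 1 of 21, chr10:96305813-96305836, plus strand: agggactGAGGAGGAAAGGAGGGt
ARID1A intron 4 of 19, chr1:27076407-27076430, plus strand: gagattAAGGGAAAGAAAGAGGAc
ARID1B intron 4 of 19, chr6:157288642-157288670, plus strand: gagtGAGAGAAGAGGAGGAGGGAGAGAAt

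The other 2 sites of A1-HMW on these genes overlapped no A1 cluster and held no run of 12 purines, and they are shown to set them beside the sites above. The first was intronic in BRD7, a bromodomain subunit of the PBAF form of SWI/SNF. The second was in the 3′ UTR of CECR2, a bromodomain partner of ISWI ATPases.
BRD7 intron 11 of 16, chr16:50358220-50358238, minus strand: agaaatggaccgggggagt
CECR2 exon 18 of 21, chr22:18034481-18034510, plus strand: ggtttagaagagtgaagaggacagaaggat

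A further 18 regions were found in both A1 libraries and in no other group. The coding sites among them and 4 intronic ones are shown because they recurred between replicates.
CHD8 coding exon 32 of 38, chr14:21861638-21861659, minus strand: gaggatGAGAAGGAAGAGAAGc
RSF1 coding exon 16 of 16, chr11:77378409-77378436, minus strand: agatGAGGAGGAGGAGGAAGAGGAAGGc
SMARCC2 coding exon 24 of 29, chr12:56563603-56563626, minus strand: gatGAGGAGAAAGGGAAAGAAGGc
SMARCC1 intron 3 of 27, chr3:47783044-47783067, minus strand: aggagtAAGGGAAAAGAGAAAGGc
SMARCA5 intron 9 of 23, chr4:144452654-144452675, plus strand: gggtAAGGAGAGAGGGGAGAAc
SMARCAD1 intron 23 of 23, chr4:95209802-95209827, plus strand: GAGAGAGGGGAGGAGGAGAGAAGtgg
ATRX intron 25 of 34, chrX:76850179-76850205, minus strand: attGGAAAGGAAGGAAGGAAAGAGAAt

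Exon and intron numbers are those of the main GENCODE transcript of each gene, and the ATRX site also overlapped a noncoding exon of another transcript. Exact matches in the genome were counted for 63 of the 66 regions in the remodeller genes, those of CHD7 being left out. Of these 63 sequences, 62 had a single exact match. The exception was the CHD3 site of A1 replicate 1, whose 17 nucleotides occurred 7 times, so its place in CHD3 is uncertain.

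Among the classes into which the listed genes were split by family and role, the CHD genes had the highest density of A1 regions. The 8 CHD genes held 20 A1 regions over 1039.91 kb, or 1.92 per 100 kb of gene, where a region is a stretch covered by A1 clusters of either library. The INO80/SWR ATPases came next, with 1.61 per 100 kb on 5 regions in 3 genes. This order holds for the listed genes only. The uncertain CHD3 site is counted among the 20. CHD1, a remodeller that binds methylated histone H3 at transcribed genes, held 2 and 4 clusters in A1 replicates 1 and 2, 1 and 0 in A1-HMW, and 0 and 1 in A1dm. All of the CHD1 clusters were intronic, and the site in intron 2 printed above was the one found in 4 libraries. CHD2, which is related to CHD1 and mutated in childhood epilepsy, held 3 and 3 clusters in A1, 0 and 1 in A1-HMW, and 0 and 1 in A1dm. An intronic region was likewise found in 4 libraries, and CHD2 also had the only CHD cluster in a 3′ UTR, in A1 replicate 2. In both genes the A1-HMW and A1dm clusters thus fell on a single region that both A1 libraries already held.

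CHD6 and CHD9, close relatives in the subfamily of CHD7 and CHD8, kept a coding site and no intronic one in A1-HMW. CHD6 held 3 and 2 in-gene clusters in A1, 1 and 0 in A1-HMW, and none in A1dm. CHD9 held 2 and 2 in A1, 1 and 0 in A1-HMW, and none in A1dm. For both, the A1-HMW cluster was on a coding exon, that of CHD9 being printed above, and the intronic sites were seen in A1 only. CHD7, the gene mutated in CHARGE syndrome, held 2 and 2 clusters in A1, and CHD8, a gene tied to autism, held 1 and 1. CHD3 and CHD4, the ATPases of the NuRD deacetylase complex, held 1 and 0, and 1 and 1, in-gene clusters. The CHD4 clusters were in different places in the 2 libraries, coding exon 26 and intron 17. None of these 4 genes held a cluster in A1-HMW or A1dm.

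**Figure D1:**
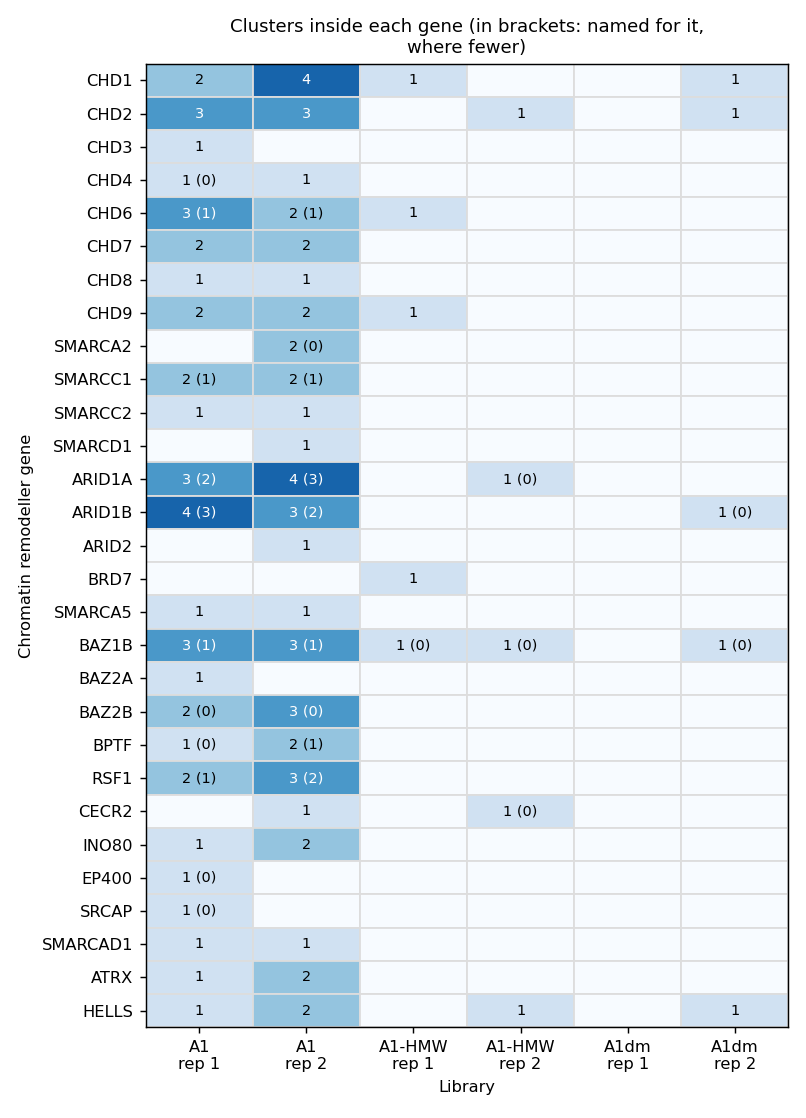
Number of clusters inside each of the 29 remodeller genes that held any (rows) in each of the 6 libraries (columns), with the number named for the gene in brackets where it is lower and darker blue for more clusters. The A1 columns are filled for 28 genes, while A1-HMW held clusters in 9 genes and A1dm in 5, all of the latter in replicate 2.

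Of the 14 SWI/SNF subunit genes, 7 held a cluster, and their A1 regions ranged from none in BRD7 to 5. ARID1A and ARID1B, the alternative DNA-binding subunits of the BAF form, led this family with 5 A1 regions each. ARID1A held 3 and 4 in-gene clusters in A1, 0 and 1 in A1-HMW, and none in A1dm. ARID1B held 4 and 3 in A1, none in A1-HMW, and 0 and 1 in A1dm. The sites that A1-HMW and A1dm shared with A1 in these 2 genes were in intron 4 of each and carried the names of small genes near them, so they are in-gene but not named clusters. SMARCC1 and SMARCC2, the paired scaffold subunits, held 2 and 2, and 1 and 1, clusters in A1 alone. SMARCD1, a further core subunit, and ARID2, the subunit that defines PBAF, held 1 cluster each, both in A1 replicate 2. Of the ATPases, SMARCA2 (BRM) held 2 in-gene clusters in A1 replicate 2 and SMARCA4 (BRG1) held none in any library. No cluster lay inside SMARCB1, SMARCD2, SMARCD3, SMARCE1, PBRM1, BRD9 or ACTL6A either.

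The ISWI ATPase genes held 1 A1 region in all and the 7 partner genes 15, or 0.828 and 1.41 per 100 kb. SMARCA5 (SNF2H) held 1 and 1 clusters in A1, at a single region in intron 9, and SMARCA1 (SNF2L) held none. BAZ1B (WSTF), a partner of SMARCA5 lost in Williams syndrome, held 3 and 3 in-gene clusters in A1, 1 and 1 in A1-HMW, and 0 and 1 in A1dm. The site in its coding exon 4 was the only one in the 40 genes found in 5 libraries, with A1dm replicate 1 the one that lacked it. The nearest start to that site is that of RNU6-1198P, a pseudogene, so the name in the deposited list would not have placed it in BAZ1B. RSF1, the histone chaperone partner of SMARCA5, held 2 and 3 in-gene clusters in A1, on coding exons 6 and 16 and in intron 5. BAZ2B held 2 and 3, all intronic and none named for it. BPTF, the large subunit of NURF that reads histone marks, held 1 and 2. BAZ2A (TIP5), which silences ribosomal RNA genes, held 1 and 0, and CECR2 held 0 and 1. CECR2 also had the A1-HMW cluster in replicate 2 described above, on another exon than the A1 cluster. BAZ1A (ACF1) had none.

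The remaining ATPases had sites in 6 of 7 genes. INO80 held 1 and 2 clusters in A1, at 3 different regions, so that no INO80 site recurred. EP400, the ATPase of the TIP60 complex, and SRCAP, which deposits the histone variant H2A.Z, held 1 and 0 in-gene clusters each. SMARCAD1 held 1 and 1, and ATRX, which loads the histone H3.3 on repeats, held 1 and 2. HELLS, which is needed for DNA methylation, held 1 and 2 in A1, 0 and 1 in A1-HMW, and 0 and 1 in A1dm. Here A1-HMW and A1dm kept different sites. The A1-HMW cluster was on coding exon 6, found in both A1 libraries, and the A1dm cluster was in intron 1, 104 nucleotides from the nearest exon, where A1 replicate 2 alone had a cluster. SMARCAL1 had no cluster in any library.

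**Figure D2:**
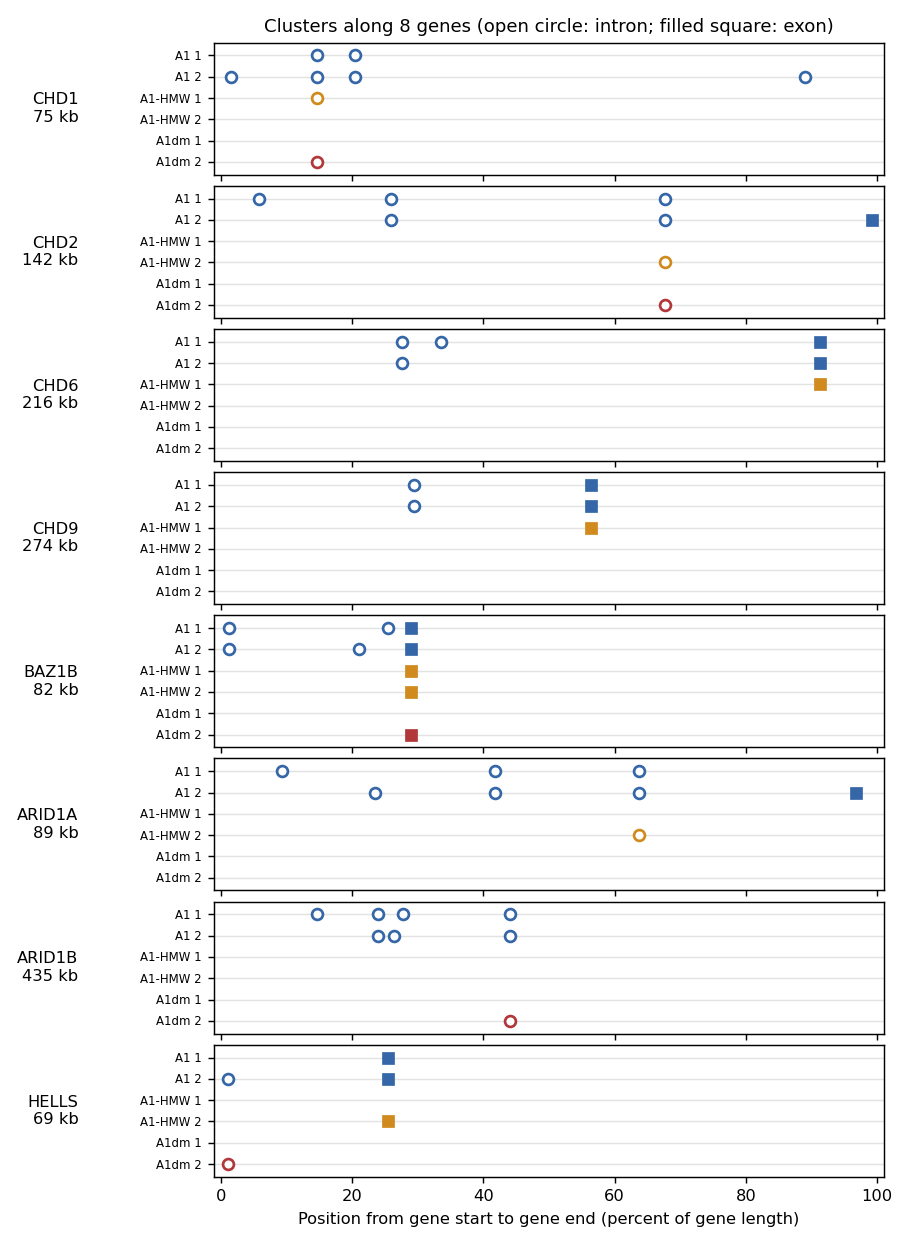
Position of each cluster along the 8 remodeller genes in which A1-HMW or A1dm shared a region with A1, as percent of gene length from the start of the gene (x axis), with 1 row per library. Open circles are intronic clusters and filled squares exonic ones, and the A1-HMW and A1dm marks stand at the place of an A1 mark in all 8 genes, on 9 regions.

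The question of which genes keep a site in the slower band or in A1dm was put to the genes with an A1 cluster. A gene was counted as keeping a site when it held any cluster there, whether or not that cluster overlapped one of A1. By named clusters, 24 genes had an A1 site, and 5 of these (CHD1, CHD2, CHD6, CHD9 and HELLS) also had 1 in A1-HMW, or 20.8% (Wilson interval 9.24 to 40.5%), beside 15.9% of all 3526 genes named with an A1 site. In A1dm, 3 of the 24 (CHD1, CHD2 and HELLS) had a site, or 12.5% (4.34 to 31.0%), beside 8.96% of all genes. Those 3 genes were also among the 5 of A1-HMW, so that 12.5% had a site in both, beside 3.69% of all genes, and 19 of the 24 genes (79.2%) kept a site in neither, beside 78.8%. By in-gene clusters, 8 of 28 genes kept a site in A1-HMW, beside 17% of all genes, and 5 of 28 in A1dm, beside 9.04%. Both were kept by 4 of the 28 (14.3%, interval 5.70 to 31.5%), beside 4.01%. The added genes were ARID1A, BAZ1B and CECR2 for A1-HMW, and ARID1B and BAZ1B for A1dm. Here and below, the in-gene percentages over all genes give each cluster to a single gene, exonic first, and cover noncoding genes too. The remodeller counts took any cluster inside the gene, so the membership rules differ. For A1-HMW and for A1dm taken singly, the percentages over all genes lay inside the intervals of the remodeller genes, so these counts do not set the remodeller genes apart. For sites in both, the lower bounds of 4.34 and 5.70% were just above the values of all genes, on counts of 3 and 4 genes.

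Of the 9 genes that kept an in-gene site in A1-HMW or A1dm, 8 had clusters in both A1 libraries (88.9%), beside 77.3% of all genes that kept one, with CECR2 being the other. The A1-HMW cluster of CECR2 did not overlap its A1 cluster, so CECR2 is kept as a gene and not as a site. Of the 17 genes with named clusters in both A1 libraries, 5 kept a site in A1-HMW, beside 26.3% of all such genes, and 3 in A1dm, beside 13.5%. The 3 had a site in both, or 17.6% (interval 6.19 to 41.0%), beside 7.05%. Of the 20 genes with in-gene clusters in both A1 libraries, 7 kept a site in A1-HMW, beside 27.4%, 5 in A1dm, beside 13.8%, and 4 in both (interval 8.07 to 41.6%), beside 7.21%. No test was run on any of these counts, since genes are not replicates. All 5 A1dm genes rest on A1dm replicate 2, and without that library no remodeller gene has an A1dm site. Without A1-HMW replicate 1 the count of named genes kept in A1-HMW is 2, and without replicate 2 it is 3.

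**Figure D3:**
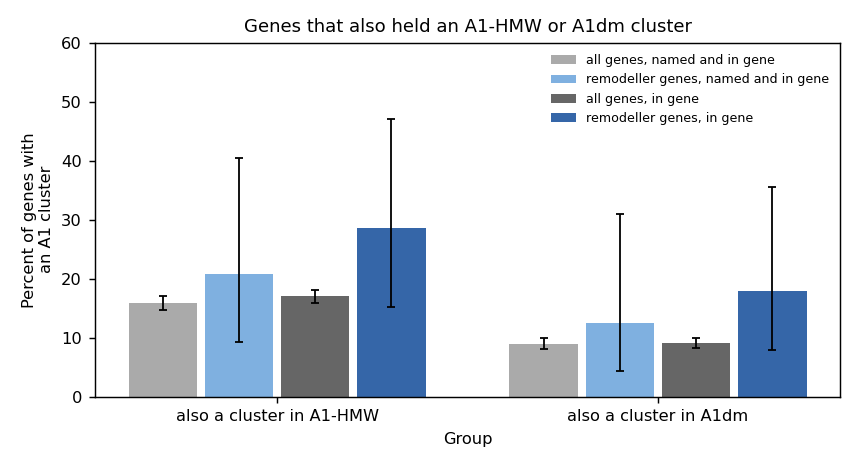
Percent of the genes with an A1 cluster that also held a cluster in A1-HMW (left) or A1dm (right), for all genes and for the remodeller genes, by named and by in-gene clusters. Bars are percentages and whiskers 95% Wilson intervals, which for the remodeller genes span the value of all genes in each of the 4 pairs.

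Single regions were compared in the same way. The in-gene A1 clusters covered 64 regions, of which 26 were found in both A1 libraries (40.6%, interval 29.5 to 52.9%), beside 31.5% of the 10574 A1 regions of the whole data. By named clusters, 19 of 44 regions were in both (43.2%, interval 29.7 to 57.8%). An A1-HMW cluster overlapped 7 of the 64 regions, beside 9.01% of all A1 regions, and an A1dm cluster 5 of them, beside 3.59%. Either was found on 9 of the 64 (14.1%, interval 7.58 to 24.6%), beside 11.2%, and both on 3, those of BAZ1B, CHD1 and CHD2, beside 1.43%. Of these 9 regions, 8 were among the 26 that both A1 libraries held, the HELLS site in intron 1 being the other. The same share was not computed over all A1 regions with an A1-HMW or A1dm cluster, so this count cannot be read as particular to remodeller genes.

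The share of each library that lay in remodeller genes was compared over libraries. Named clusters made up 0.465 and 0.444% of the A1 libraries, 0.596 and 0.231% of A1-HMW, and 0 and 0.503% of A1dm. The 2 A1 values lay close together, and the A1-HMW and A1dm values spread to both sides of them. The A1dm value of 0 stands for 0 of 232 clusters, which allows a share of up to 1.29% by a limit of 3 counts (1.63% by the upper Wilson bound), and at the A1 share 1.05 clusters would have been found there. The means were 0.455% ± 0.0146 (SD, n = 2) for A1, 0.414% ± 0.258 for A1-HMW and 0.252% ± 0.356 for A1dm. A1-HMW minus A1 was -0.0411 percentage points (exact two-sided permutation p = 1), A1dm minus A1 was -0.203 (p = 1 by the same exact test), and A1dm minus A1-HMW was -0.162 (exact permutation p = 0.667). With 2 libraries against 2 the smallest p is 0.333, so that none of these comparisons could have passed a threshold, and each of the differences was smaller than the larger SD. Replicates came, by the paper's account, from separate experiments. By in-gene clusters the shares were 0.706 and 0.605% for A1, 0.745 and 0.578% for A1-HMW, and 0 and 0.839% for A1dm.

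**Figure D4:**
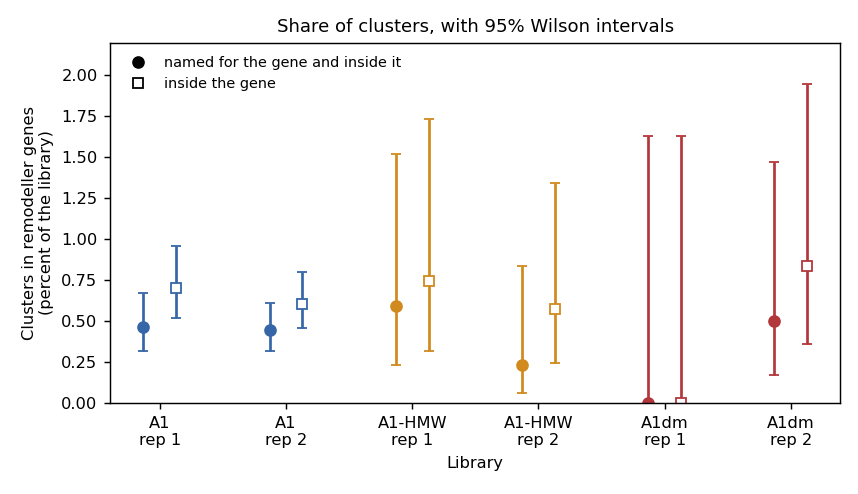
Percent of the clusters of each library that lay in a remodeller gene, by named clusters (filled circles) and in-gene clusters (open squares), with 95% Wilson intervals as whiskers. The intervals of all 6 libraries overlap, and those of A1dm replicate 1, with 232 clusters and none in these genes, reach the upper Wilson bound of 1.63%.

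Sites in coding exons made up a larger part of the A1 clusters in remodeller genes than in protein-coding genes as a whole. Placed on the main transcript of each gene, 24 of 90 in-gene clusters lay in coding exons (26.7%, interval 18.6 to 36.6%), against 516 of 9398 in all protein-coding genes (5.49%, interval 5.05 to 5.97%). The value was 26.8% in A1 replicate 1 and 26.5% in replicate 2. Introns held 63 of the 90 (70.0%, interval 59.9 to 78.5%), against 81.5% in all protein-coding genes, and 3′ UTRs held 2. Named clusters gave 19 of 63 in coding exons (30.2%, interval 20.2 to 42.4%). Counted once per site, 17 of 64 regions were coding and 44 intronic, and of the 26 regions in both A1 libraries 7 were coding and 19 intronic. The coding regions were spread over the families, with sites in CHD4, CHD6, CHD7, CHD8 and CHD9, in ARID1A, SMARCA2 and SMARCC2, in BAZ1B, BAZ2A, CECR2 and RSF1, and in EP400, INO80, ATRX and HELLS. Intervals cover counting error only, and clusters that share a site or gene are not independent.

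In the deposited annotation, which uses other classes, 39 of the 63 named clusters were intronic (61.9%, interval 49.6 to 72.9%), beside 60.2% of all A1 clusters, a base that also holds intergenic clusters. Over A1 clusters inside genes, placed by GENCODE with exons of any transcript taken first, 63.5% of the named clusters and 83.4% of all were intronic. On that base, exons of protein-coding genes held 36.5% of the named clusters and 14.5% of all. By the deposited classes, 12 named clusters were exonic (19.0%), beside 5.66% of all A1 clusters, intergenic ones included. In the same classes 11 were listed as near a promoter (17.5%), beside 9.65% of all A1 clusters, although they lay inside the gene. The coding sites of CHD8, CHD9 and INO80 were among those listed as near a promoter.

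**Figure D5:**
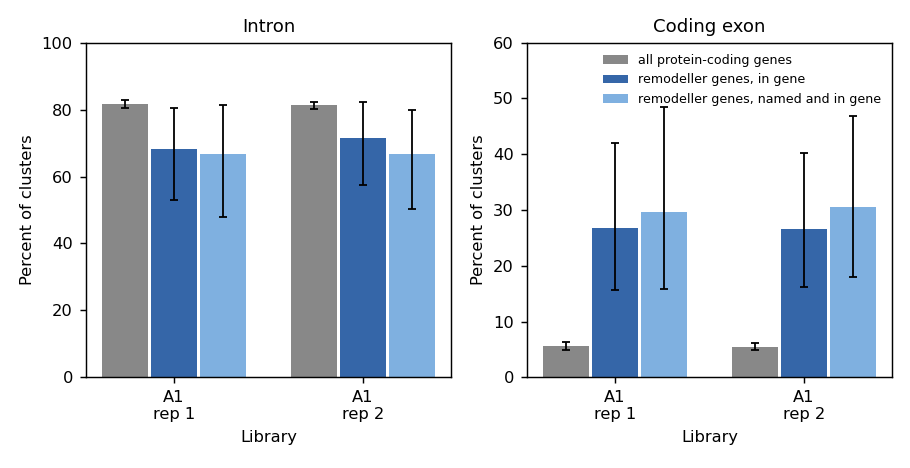
Percent of A1 clusters in introns (left) and coding exons (right) of the main transcript, for all protein-coding genes and for the remodeller genes by in-gene and by named clusters, in each A1 library. Whiskers are 95% Wilson intervals, and in coding exons those of the remodeller genes lie above the value of all protein-coding genes in both libraries.

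Remodeller genes have long coding sequences and long introns, so gene length was set beside these counts. Coding sequence made up 4.15% of the length of the 28 remodeller genes with an A1 cluster and 1.84% of that of all protein-coding genes with one. The mean coding length was 5.81 kb against 2.38 kb. The median gene length was 82.8 kb for the 40 genes and 27.2 kb for all protein-coding genes. Per length, the 40 genes held 1.36 A1 regions per 100 kb against 0.528 for all protein-coding genes, expressed or not, and 70% of them had an A1 site against 21.6%. These contrasts too are for genes chosen with earlier results of these data known. Longer remodeller genes tended to have more A1 regions (Spearman's rho 0.568 across 40 genes, a description, since genes are not independent replicates). The 11 genes without a cluster had a median length of 51.1 kb against 130.5 kb for the 29 with one, though the ranges overlapped, from 11.0 to 140.6 kb and from 15.5 to 434.8 kb. SMARCD1, at 15.5 kb, had a site and PBRM1, at 140.6 kb, had none.

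Runs of 12 or more purines were also more frequent in the coding sequence of these genes. The reference sequence held 362 such runs in the coding exons of the 40 genes, 1.87 per kb against 0.899 per kb in all protein-coding genes. In introns the density was 0.736 against 0.833 per kb. An A1 cluster lay on 17 of the 362 coding runs (4.70%, interval 2.95 to 7.39%), against 1.19% of coding runs in all protein-coding genes, and on 44 of 3053 intronic runs (1.44%, interval 1.08 to 1.93%), against 0.651%. All protein-coding genes here include those without any A1 cluster. Among genes with an A1 cluster, 5.82% of coding runs held one in remodeller genes (interval 3.67 to 9.12%), against 3.43% in all protein-coding genes. For intronic runs the shares were 1.74% (interval 1.30 to 2.33%) and 1.62%, so on this base the intronic values were close. ATRX, with 25 coding runs, had a cluster on 1 of them. CHD2, with 21, and BAZ1A, with 16, had none on a coding run.

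The sequences of A1 clusters in remodeller genes were like those of A1 clusters elsewhere. Of 63 named A1 clusters, 62 held a run of at least 12 purines (98.4%, interval 91.5 to 99.7%), beside 97.3% of all A1 clusters, and 91.0% of their bases were purines, beside 90.7%. The exception was the CHD2 site in the 3′ UTR, whose longest run was 11. The hexamer GAGGAA, counted on the transcribed strand, was in 28.6% of the named clusters and 33.5% of all A1 clusters. The median distance of the named intronic clusters from the nearest exon was 2218.5 nucleotides, beside 2567 for all intronic A1 clusters. This order depended on the library and the set, since the median was 3444 nucleotides in replicate 1 and 1281 in replicate 2, and 3473.5 for in-gene clusters. Of the named intronic clusters, 3 of 40 lay within 300 nucleotides of an exon (7.5%), beside 12.2%. These were in CHD3, CHD4 and HELLS, at 8, 82 and 104 nucleotides. The farthest printed site, in intron 4 of ARID1B, was 17172 nucleotides from an exon. In the other groups the counts were small. A run of at least 12 purines was in all 5 in-gene A1dm clusters (interval 56.6 to 100%), beside 60.5% of all A1dm clusters. In A1-HMW it was in 8 of 10 in-gene clusters, beside 85.9% of all.

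The 7 named clusters that did not lie in their gene were all from A1. CHD3 had 5 of these upstream of its start, of which 1 was on the opposite strand in an intron of NAA38. SMARCD2 and ARID1A had 1 each on the opposite strand near their starts. SMARCD2 would otherwise have been listed with a site that its transcript does not hold.

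Other genes of the same complexes were counted by in-gene clusters. Of 68 further subunits and SNF2 family ATPases, 27 had an A1 site (39.7%, beside 70% of the 40 genes and 21.6% of all protein-coding genes), 12 an A1-HMW site and 7 an A1dm site, and 39 had none. Of the 27 with an A1 site, 11 kept 1 in A1-HMW (40.7%, beside 17% of all genes) and 6 in A1dm (22.2%, beside 9.04%). These all-gene values give each cluster to a single gene of any type, whereas any cluster inside the 68 genes was counted. A1dm replicate 1, which had no cluster in the 40 genes, had one in 6 of these. By named clusters 18 of the 68 genes had an A1 site. Of these, 7 kept 1 in A1-HMW (38.9%, beside 15.9% of all genes) and 4 in A1dm (22.2%, beside 8.96%). No intervals were computed and no test was run for these shares, which rest on counts of 4 to 11 genes. For the 28 listed genes with an A1 site, the in-gene shares were 28.6% in A1-HMW and 17.9% in A1dm. GATAD2B, INO80E, UCHL5 and VPS72 had no named cluster in any library. The NuRD subunits RBBP4, a histone binding protein, and GATAD2B had clusters in both A1 and both A1-HMW libraries and none in A1dm, while MTA2 had 1 cluster in A1 replicate 1 and 1 in A1-HMW replicate 1. UCHL5, a deubiquitinase of INO80 and the proteasome, had clusters in all 6 libraries. RUVBL1, an AAA+ ATPase of INO80, SRCAP and TIP60, held 2 and 2 clusters in A1, 1 and 0 in A1-HMW and 1 and 0 in A1dm, and RAD54L, a recombination factor, held 2 and 2, 0 and 1, and 1 and 0. BTAF1, which removes TBP from DNA, held 3 and 3 in A1, 1 and 1 in A1-HMW and 0 and 2 in A1dm. INO80E held 0 and 1 in A1, 0 and 1 in A1-HMW and 1 and 0 in A1dm. VPS72, TRRAP and EPC1 had a site in A1 and A1-HMW, and EPC2 in A1 and A1dm. CHD1L held 0 and 0 clusters in A1 and 1 and 1 in A1-HMW, and INO80C had its single cluster in A1dm replicate 1.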

How the data were processed

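The authors deposited, for each library, a list of wavClusteR clusters annotated by HOMER, per the file headers. The paper's own peaks were generated with PARalyzer, and the average numbers it reports for A1-HMW and A1dm are larger than these lists. A site missing from the lists used here may therefore be among the paper's peaks. The submitters' processing notes name Bowtie and hg19, while the paper's methods name STAR, and versions are not given in the sources used here. The deposited score column held 0 throughout and gave no read numbers. The start in each cluster's identifier, 1 nucleotide below the listed start, was used, because with it all clusters contained a T, against 94.7 to 98.0% as listed.

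Clusters were placed by strand on GENCODE v44lift37 genes, with Python 3.11.15, pandas 2.3.3, NumPy 2.4.6 and SciPy 1.17.1. Position was read from 1 main transcript per gene, and sequence from the reference of the same build. Clusters overlapping by at least 1 nucleotide on a strand formed a region. Shares carry 95% Wilson intervals, and libraries were compared by exact permutation. A count of 0 was given the limit of 3 counts. The overlap code was tested on simulated clusters. The genes, the other complex genes, the tests and the alternatives were chosen with earlier results of these data known. Named are all genes with clusters in A1-HMW, A1dm or either A1 library and those with none, and up to 20 sequences, first of regions with A1-HMW or A1dm clusters, then of regions in both A1 libraries. The sequences of 2 of these regions are not reported here.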

Additional observations from a re-analysis of the deposited data

How the results depend on the processing

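Of 78 values recomputed under alternative settings, 61 kept their sign, or their value within its interval or allowed range, 12 moved and 5 changed sign. Counting all in-gene clusters turned A1-HMW minus A1 to 0.00598 percentage points and raised the genes kept in A1-HMW to 8 and in A1dm to 5. Leaving out 1 library at a time, A1-HMW minus A1 ranged from -0.224 to 0.141, A1dm minus A1 from -0.455 to 0.0486, and A1dm minus A1-HMW from -0.414 to 0.0897, with the positive values coming from the loss of A1-HMW replicate 2, of A1dm replicate 1, and of A1dm replicate 1 or A1-HMW replicate 1 (0.0205). The genes kept ranged from 2 to 5 in A1-HMW and from 0 to 3 in A1dm, and the share of clusters with a purine run from 97.2 to 100%. With clusters that recurred in the other library of their group, 16 genes had a site, 0 of them kept 1 in A1-HMW and 0 in A1dm, and 100% of the clusters held a run of 12 purines. There, A1-HMW minus A1 and A1dm minus A1 both became -0.571 (exact permutation p = 0.333, the smallest possible) and A1dm minus A1-HMW became 0, because neither group had a recurring named cluster. A run of 10 purines was in 100%. The causes were not tested beyond these constructions. With the replicate number as a block, the mean differences were the same (-0.0411, -0.203 and -0.162, exact sign flip p = 1 for each, smallest possible p 0.5), and the labels do not say that a number marks a shared batch. Placing clusters by GENCODE, an alternative added after seeing the data, gave an intronic share of 63.5% for 61.9%. The small lists limit what can be seen, since A1dm replicate 1, with 232 clusters, would hold 1.05 at the A1 share.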
